A study of Homo sapiens with 6 samples.

Results

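*TXNIP*, its alpha-arrestin relatives *ARRDC1*, *ARRDC2*, *ARRDC3* and *ARRDC4*, and the genes of its glucose-sensing activators, *MLXIP* and *MLXIPL*, were followed in SK-Hep1 cells with and without knockdown of the lncRNA *RAB30-DT*. These 7 genes, of 62700 with a value, were taken by their symbols, and the group was chosen because *TXNIP* was among the genes that rose most in the same comparison. The change of *TXNIP*, and those of the other members, are therefore given as a description and without a p-value. Of the 7 genes, 6 reached a mean of 1 TPM (a transcript level scaled by gene length and library total, the unit of the files) and entered the comparison with 14020 genes in all, while *MLXIPL* did not.

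RNA-Seq was performed on 3 control libraries, titled shControl but given the genotype WT, and on 3 libraries titled shRAB30-DT. SK-Hep1 is a human cell line that the paper calls endothelial-derived, while it refers to the sequenced cells as hepatocellular carcinoma cells. Stable knockdown lines were made with lentiviral shRNA vectors and puromycin, and the methods also describe control vectors, as the title of the control libraries does. Since the genotype label is WT, whether the control cells carried such a vector is not settled. The methods describe more than 1 shRNA against *RAB30-DT*, and the labels do not say whether the 3 knockdown libraries share 1, so their mean and SD may cover different shRNAs. Nothing states whether the 3 libraries of a group came from separate cultures, so the p-values below measure the spread between these libraries, which may be technical.

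Alpha-arrestins are adaptor proteins that bring ubiquitin ligases of the NEDD4 family to membrane proteins, which are then taken up or sorted to lysosomes. TXNIP, the thioredoxin-interacting protein, binds the active site of reduced thioredoxin and promotes the removal of glucose transporters from the cell surface. Its gene is a classic target of MondoA (*MLXIP*) and ChREBP (*MLXIPL*), which, paired with MLX, respond to glucose 6-phosphate and bind carbohydrate response elements, each made of a pair of E-boxes. *ARRDC4*, the closest relative of *TXNIP*, is driven by the same factors.

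TPM take gene length into account and add up to the same total in each library, so levels of different genes can be set side by side within a library, but the depth behind them is unknown. Between 20127 and 21675 genes per library were above 0 TPM. The targeted lncRNA had 18.16, 11.51 and 13.91 TPM in control replicates 1 to 3 and 11.94, 10.85 and 6.5 TPM in knockdown replicates 1 to 3. Knockdown replicate 1 thus lay above control replicate 2, and the log2 fold change of *RAB30-DT* was −0.55 (SE 0.27, limma, Benjamini–Hochberg adjusted p = 0.355). The paper also reports a qPCR check of the knockdown in these cells, whose values are not compared here. Of 7 hepatocyte markers, 4 (*ALB*, *APOB*, *TTR* and *HNF4A*) were listed at 0 in every library and 1 reached a mean of 1 TPM (*SERPINA1*). The sum over the list, 18.1 to 24.0 TPM in control and 28.3 to 37.2 TPM in knockdown libraries, was in effect that of *SERPINA1*. No other hepatocyte marker exceeded 0.46 TPM in any library. No endothelial marker of 7 reached a mean of 1 TPM, with *KDR* and *ERG* listed at 0 throughout, whereas all 7 mesenchymal markers did. Their sums were 5431 to 5665 TPM in control and 5734 to 6183 TPM in knockdown libraries, but the markers did not move together. *VIM* had means of 3883 TPM in control and 4615 TPM in knockdown cells. *SPARC* (1497 and 1220 TPM) and *THY1* (131 and 89.2 TPM) were lower in knockdown cells. The groups did not overlap in any of these genes, and they overlapped in the other mesenchymal markers. Of the 21 markers, only *SERPINA1* and the 7 mesenchymal genes were tested, and 0 of them were called, against 1.04% of all genes tested. The others were below the filter and could not be called. The part of these markers in the results was not tested. In bulk RNA, fewer cells of a type and less RNA per cell cannot be told apart.

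The 250 bases before the start of *TXNIP* hold the carbohydrate response element through which the Mondo factors are known to act, and they are shown here with those of *ARRDC4* because only these members carried an E-box motif in the letters searched. The sequences are from RefSeq on GRCh38.p14 and read 5′ to 3′ on the strand of the gene. Capitals mark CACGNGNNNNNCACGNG, a pair of E-box-like boxes 5 bases apart, in *TXNIP* (chr1:145996580-145996829, minus strand), and the single E-box CACGTG in *ARRDC4* (chr15:97960453-97960702, plus strand).
TXNIP: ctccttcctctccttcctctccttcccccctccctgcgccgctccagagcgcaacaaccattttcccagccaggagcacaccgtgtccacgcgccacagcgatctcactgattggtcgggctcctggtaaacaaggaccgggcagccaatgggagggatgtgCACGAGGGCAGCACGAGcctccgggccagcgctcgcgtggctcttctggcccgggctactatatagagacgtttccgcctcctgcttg
ARRDC4: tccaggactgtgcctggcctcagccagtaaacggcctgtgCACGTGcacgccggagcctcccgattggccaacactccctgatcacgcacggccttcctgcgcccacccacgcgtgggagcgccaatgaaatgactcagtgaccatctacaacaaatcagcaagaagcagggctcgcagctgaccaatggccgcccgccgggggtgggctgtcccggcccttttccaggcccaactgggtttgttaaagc
The pair in *TXNIP* lay 88 to 72 bases before the start. Searched on both strands, it was found in 16 of 35116 windows of this length (0.0456%). The E-box of *ARRDC4* lay 210 to 205 bases before the start, and CACGTG was found in 2228 windows (6.34%). CCAAT, the box of the factor NF-Y, was found in 11240 windows (32.0%), at 2 places in *TXNIP* and at 3 in *ARRDC4*. GTAAACA, a forkhead motif found in 1046 windows (2.98%), was present once in *TXNIP*, 124 bases before the start. A match describes these letters only, and the absence of one in another member says nothing about the factor.

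*TXNIP* was the member that stood apart. *TXNIP* (ENSG00000265972.6, minus strand of chromosome 1 of hg38, 145992435 to 145996579) had 28.28, 21.95 and 19.41 TPM in control replicates 1 to 3 and 171.25, 154.54 and 107.34 TPM in knockdown replicates 1 to 3. The groups did not overlap, and the lowest knockdown library was 3.80 times the highest control library. Knockdown cells averaged 144 ± 33.1 TPM (SD, n = 3) and control cells 23.2 ± 4.57 TPM (SD, n = 3), a ratio of 6.22. On the log2(TPM + 1) scale the difference was 2.58 (SE 0.23). Among the 52 genes called higher, *TXNIP* had the second largest log2 fold change (the 13th largest of all 14020 genes tested), after the pseudogene *CEACAMP10* with 3.04 and before *PFKFB4* with 2.46. *CEACAMP10* is named only as the neighbor in this order. With each library left out in turn or with another pseudocount, filter, scaling or block, the log2 fold change of *TXNIP* ranged from 2.39 to 2.77. These are refits of the libraries from which *TXNIP* was chosen and are no independent support.

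**Figure D1:**
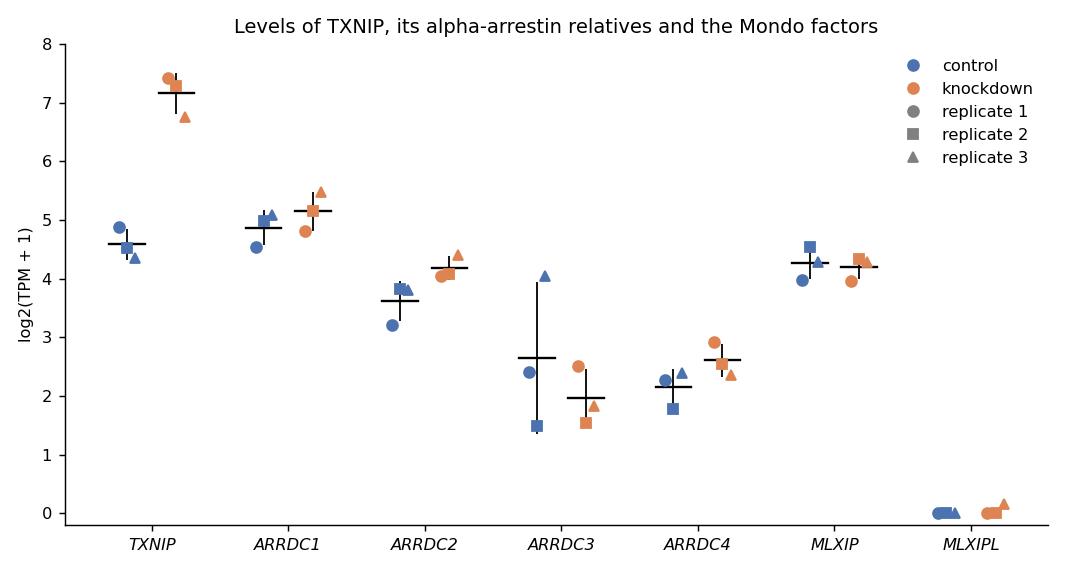
Level of each member as log2(TPM + 1), with 1 point per library, colors for the groups and shapes for the replicate numbers, and lines at the mean ± SD of each group of 3 (none for *MLXIPL*, listed at 0 in 5 libraries). *TXNIP* and *ARRDC2* were the tested members without overlap of the groups, and control replicate 3 stood above the other libraries for *ARRDC3*.

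Of the 6 tested members, 1 (*TXNIP*) was called at an adjusted p under 0.05. Over all 14020 genes, 146 (1.04%) were called, 52 higher (0.371%) and 94 lower (0.67%) in knockdown cells. The split of higher and lower calls moved to 68 and 68 with median-of-ratios scaling and to 78 and 83 with quantile normalization. Since *TXNIP* was chosen from this comparison, nothing is read from its count. In 2 of the 6 tested members, *TXNIP* and *ARRDC2*, the groups did not overlap, as in 23.3% of all genes tested.

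*ARRDC4*, which like *TXNIP* lowers glucose uptake, was not called. *ARRDC4* (ENSG00000140450.9, plus strand of chromosome 15, 97960703 to 97973833) had 3.81, 2.44 and 4.23 TPM in control and 6.52, 4.86 and 4.14 TPM in knockdown libraries. The groups overlapped, because knockdown replicate 3 lay below control replicate 3. The means were 3.49 ± 0.94 and 5.17 ± 1.22 TPM (SD, n = 3 each), and the log2 fold change was 0.46 (SE 0.26). It stayed between 0.26 and 0.59 over the alternatives, without a call in any of 15 fits. Set against *TXNIP* in the same library, *ARRDC4* came to 13.5%, 11.1% and 21.8% of its level in control and to 3.81%, 3.14% and 3.86% in knockdown libraries.

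*ARRDC2*, a less studied adaptor of the NEDD4 ligases, was higher in each knockdown library than in any control library, but was not called. *ARRDC2* (ENSG00000105643.11, plus strand of chromosome 19, 18001132 to 18014102) had 8.29, 13.15 and 13.02 TPM in control and 15.41, 15.94 and 20.23 TPM in knockdown libraries. Its mean was 11.5 ± 2.77 TPM in control and 17.2 ± 2.64 TPM in knockdown cells (SD, n = 3 each), with a log2 fold change of 0.56 (SE 0.23). The smallest distance between the groups was that of control replicate 2 and knockdown replicate 1. *ARRDC2* is rich in GC (62.0% of its exon bases), and across genes the levels in replicate 1 of both groups fell with GC content (Spearman's rho of the deviation from the mean of all libraries −0.606 in control and −0.524 in knockdown replicate 1, against 0.0162 to 0.489 in the other libraries). With each library's GC trend removed, its log2 fold change was 0.66 (SE 0.13) and *ARRDC2* was called, as it was with the replicate block and the GC correction together, and in no other fit. These fits called 8.5% and 7.33% of all genes tested.

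*ARRDC1*, which recruits the ESCRT protein TSG101 and drives the budding of small vesicles from the cell surface, showed overlapping groups. *ARRDC1* (ENSG00000197070.14, plus strand of chromosome 9, 137605685 to 137615360) had 22.11, 30.53 and 33.09 TPM in control and 27.15, 34.39 and 43.39 TPM in knockdown libraries. Replicate 1 was the lowest and replicate 3 the highest in both groups, and 63.2% of the exon bases of *ARRDC1* are G or C. The means were 28.6 ± 5.74 and 35.0 ± 8.14 TPM (SD, n = 3 each), with a log2 fold change of 0.28 (SE 0.24), or 0.39 (SE 0.12) with the GC trend removed. The span of the antisense gene *ARRDC1-AS1* overlaps that of *ARRDC1* by 35 bases, and *ARRDC1-AS1* was at 8.84 to 18.38 TPM. Whether the counting used strand is not stated, so reads in the shared stretch cannot be told apart.

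*ARRDC3*, an adaptor for the beta-2 adrenergic receptor and for integrin beta 4, was lower on average in knockdown cells through 1 library. *ARRDC3* (ENSG00000113369.9, minus strand of chromosome 5, 91368631 to 91383317) had 4.3, 1.81 and 15.44 TPM in control and 4.7, 1.91 and 2.53 TPM in knockdown libraries. Control replicate 3 was over 3 times any other library, and without it the groups covered nearly the same range. The means were 7.18 ± 7.26 and 3.05 ± 1.47 TPM (SD, n = 3 each), with a log2 fold change of −0.69 (SE 0.60). Without control replicate 3 the log2 fold change was 0.0089 (SE 0.40), and without control replicate 2 it was −1.27. Control replicate 3 also had the highest levels of *KLF6*, with 227.71 TPM against 60.55 to 70.18 TPM in the others, and of *KLF10*, with 53.22 TPM against 15.95 to 23.76 TPM. Both are transcription factors and are named here after their values were seen. They do not stand for the library: of the 106 tested genes in the lists below, 18 were highest and 43 were lowest in control replicate 3. The antisense gene *ARRDC3-AS1* overlaps the span of *ARRDC3* by 2969 bases but did not exceed 0.79 TPM in any library.

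The order of the levels differed between the groups. In control cells the highest means were those of *ARRDC1* and *TXNIP*, whose libraries overlapped. They were followed by *MLXIP*, which overlapped both, and then by *ARRDC2*, *ARRDC3* and *ARRDC4*. *ARRDC3* overlapped *MLXIP*, *ARRDC2* and *ARRDC4* as well. In knockdown cells *TXNIP* was above every library of *ARRDC1*, and *ARRDC1* in turn was above every library of *MLXIP* and *ARRDC2*, which overlapped. *ARRDC4* and *ARRDC3* came last and overlapped each other.

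Summed over the 5 alpha-arrestins, the level was 66.79, 69.88 and 85.19 TPM in control and 225.03, 211.64 and 177.63 TPM in knockdown libraries. *TXNIP* made up 42.3%, 31.4% and 22.8% of this sum in control and 76.1%, 73.0% and 60.4% in knockdown libraries. Without *TXNIP* the sums were 38.51, 47.93 and 65.78 TPM and 53.78, 57.1 and 70.29 TPM, and the groups overlapped. In both groups the share of *TXNIP* was highest in replicate 1 and lowest in replicate 3, where the summed level of the other alpha-arrestins was lowest and highest. The level of *TXNIP* itself also fell from replicate 1 to replicate 3, from 28.28 to 19.41 TPM in control and from 171.25 to 107.34 TPM in knockdown libraries.

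**Figure D2:**
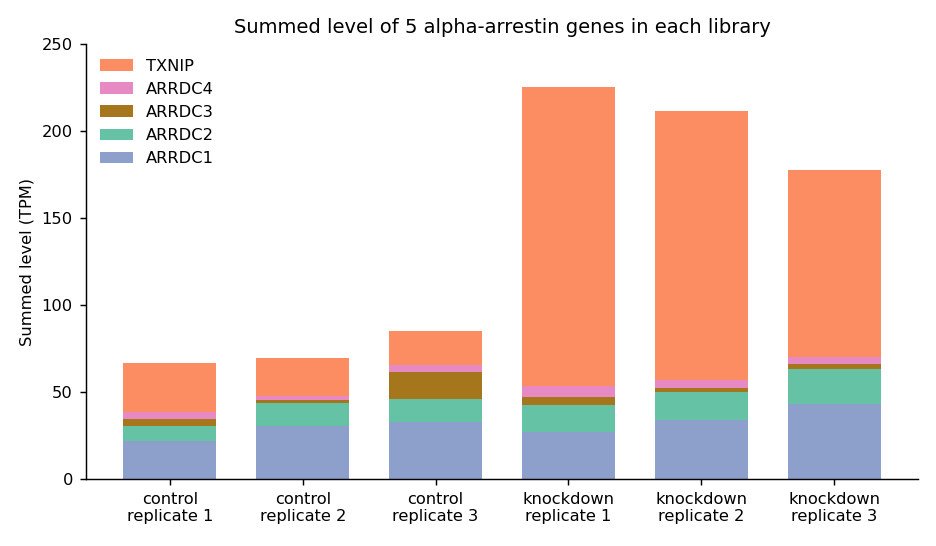
Summed level of the 5 alpha-arrestins in each library in TPM, as stacked bars from 0 with 1 color per gene. The *TXNIP* segment took 22.8% to 42.3% of the bar in control and 60.4% to 76.1% in knockdown libraries, and the other segments together stayed between 38.51 and 70.29 TPM.

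The genes of the glucose-sensing factors themselves were not called. *MLXIP* (ENSG00000175727.15, plus strand of chromosome 12, 122078756 to 122147344) had 14.75, 22.3 and 18.49 TPM in control and 14.57, 19.09 and 18.41 TPM in knockdown libraries. The groups overlapped, and replicate 1 was the lowest in both. The log2 fold change was −0.08 (SE 0.21) from means of 18.5 ± 3.78 and 17.4 ± 2.44 TPM (SD, n = 3 each), and it turned positive, with 0.058 at most, without control replicate 2 or knockdown replicate 1. *MLXIPL* (ENSG00000009950.16, minus strand of chromosome 7, 73593194 to 73624543), which is known from hepatocytes, was listed at 0 in 5 libraries and at 0.12 TPM in knockdown replicate 3. A listed 0 is no proof of absence in these files, since *PRDX2*, a peroxiredoxin that most cells express strongly, was also listed at 0 in 4 libraries and at 0.19 and 0.08 TPM in the other two. No fold is given for either gene.

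**Figure D3:**
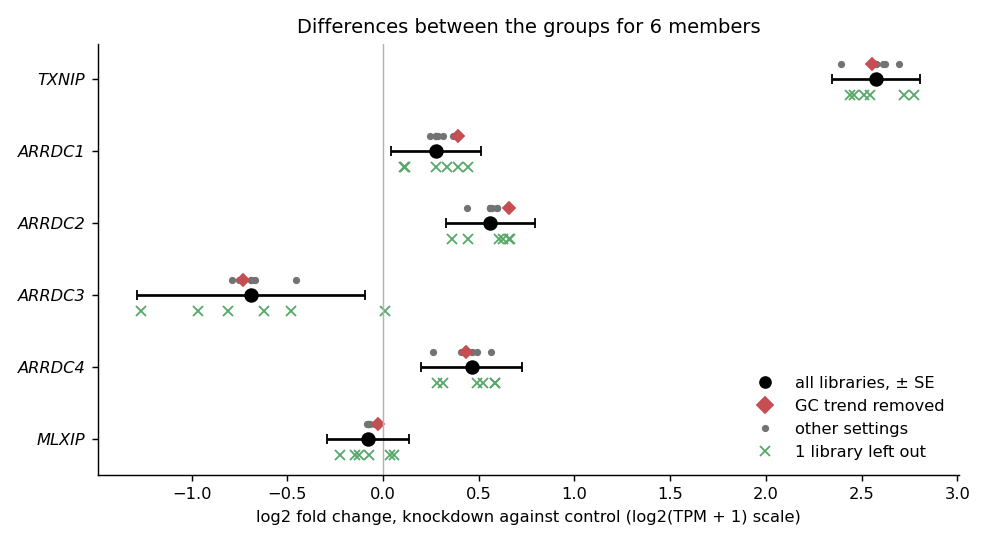
Log2 fold change of each tested member on the log2(TPM + 1) scale, knockdown minus control, as a black point with its standard error from all libraries, a diamond with the GC trend removed, dots for other settings and crosses with 1 library left out. *TXNIP* lay between 2.39 and 2.77 in every fit in which it was tested, while the other members lay between −1.27 (*ARRDC3* without control replicate 2) and 0.66 (*ARRDC2*).

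Of 9 genes for the partners and competitors of the Mondo factors in the MAX and MLX network, 9 were tested and 0 were called by limma, with 1 higher and 1 lower at an unadjusted p under 0.05. Their median log2 fold change was −0.03, against −0.04 for all genes tested, of which 16.8% had an unadjusted p under 0.05 (7.06% higher and 9.7% lower). *MLX*, the obligate partner, had means of 57.1 ± 5.58 and 49.3 ± 0.66 TPM (SD, n = 3 each) and a log2 fold change of −0.20 (SE 0.16), and is named for this role after its value was seen. *MXD3*, a repressor that pairs with MAX, had 16.76, 36.98 and 67.06 TPM in control and 13.76, 16.83 and 16.37 TPM in knockdown libraries. Control replicates 2 and 3 were above all knockdown libraries and control replicate 1 was not above knockdown replicate 2, with a log2 fold change of −1.11 (SE 0.43, limma, Benjamini–Hochberg adjusted p = 0.247). The log2 fold change of *MXD3* was −1.62 without control replicate 1 (limma, adjusted p = 0.0257) and −0.65 without control replicate 3 (0.332), and over all alternatives its adjusted p ran from 0.0257 to 0.502. *MXI1*, a repressor of the same family, had 19.88, 15.86 and 13.22 TPM against 33.42, 30.92 and 19.57 TPM. Knockdown replicate 3 lay just below control replicate 1, and the log2 fold change was 0.72 (SE 0.25, limma, adjusted p = 0.208). *MXI1* was called with the replicate block (adjusted p = 0.0434) and with the block and the GC correction (0.0393), out of a range of 0.0393 to 0.545. Over all genes tested, these settings called 861 of 14020 and 7.33%, in that order.

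No other gene listed as a target of carbohydrate response elements was called in the main fit. Of 24 listed, 16 were tested and 0 were called by limma. At an unadjusted p under 0.05, 4 were higher and 1 was lower, against 7.06% and 9.7% of all genes. The median log2 fold change of the tested genes was 0.02. Another 8 genes were not tested, and 3 of these (*FGF21*, *G6PC1* and *TM6SF2*) were listed at 0 in every library. *SCD*, the stearoyl-CoA desaturase, had 555.57, 505.73 and 126.66 TPM in control and 916.91, 871.85 and 755.95 TPM in knockdown libraries. The groups did not overlap and control replicate 3 was far below the rest, with a log2 fold change of 1.36 (SE 0.50, limma, Benjamini–Hochberg adjusted p = 0.227). Without control replicate 3 the log2 fold change of *SCD* was 0.67 (SE 0.13, limma, adjusted p = 0.0747). *PPP1R3B*, a glycogen-targeting subunit of protein phosphatase, had 3.78, 3.74 and 2.7 TPM in control and 8.86, 8.02 and 6.36 TPM in knockdown libraries. Its groups did not overlap either, and the log2 fold change was 0.99 (SE 0.23, limma, adjusted p = 0.0911). *PPP1R3B* was called with the GC trend removed (adjusted p = 0.017), with the replicate block (0.0384) and with both (0.038), out of a range of 0.017 to 0.370. Over all genes tested, these settings called 8.5%, 861 of 14020 and 7.33%, in that order.

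Among enzymes of glucose 6-phosphate and of the hexose phosphate steps next to it, 1 rose, which acts on fructose phosphates. Of 18 listed, 15 were tested, 1 was called higher and 0 lower, against 0.371% and 0.67% of all genes, with 7 higher and 2 lower at an unadjusted p under 0.05 (7.06% and 9.7% of all genes) and a median log2 fold change of 0.38. *PFKFB4*, which makes and removes the phosphofructokinase activator fructose 2,6-bisphosphate, had 6.62, 5.73 and 2.85 TPM in control and 30.29, 38.04 and 25.76 TPM in knockdown libraries. All knockdown libraries were above all control libraries, and the log2 fold change was 2.46 (SE 0.29, limma, Benjamini–Hochberg adjusted p = 0.0215). The call of *PFKFB4* was lost without control replicate 2 (adjusted p = 0.0737), knockdown replicate 1 (0.0816), knockdown replicate 2 (0.0856) or knockdown replicate 3 (0.0727), while its log2 fold change stayed between 2.16 and 2.65. The hexokinases, named after their values were seen, were not called in the main fit. The log2 fold changes were 0.63 (SE 0.16) for *HK1*, 0.79 (SE 0.23) for *HK2* and −1.30 (SE 0.33) for *HKDC1*, with adjusted p of 0.106, 0.145 and 0.109 from limma. *HK1* and *HKDC1* were called with the GC trend removed, with the replicate block and with both. *HK2* was called with the GC trend removed, and *HKDC1* also without control replicate 1. With the GC trend removed 8.5% of all genes tested were called, with the replicate block 861 of 14020, and with the block and the GC correction 7.33%.

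**Figure D4:**
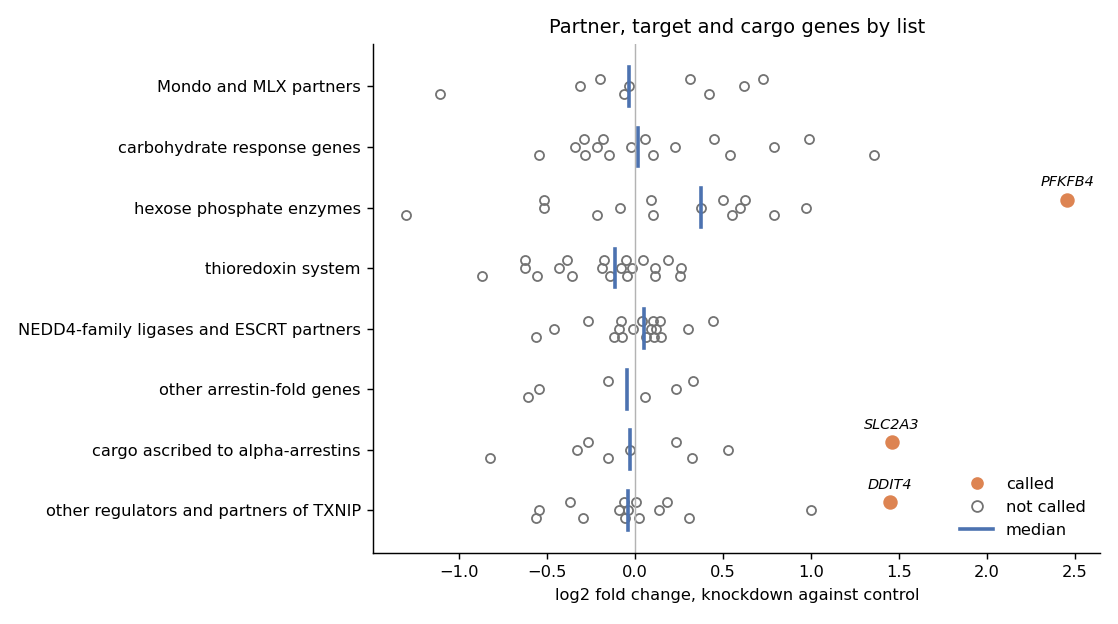
Log2 fold change, knockdown minus control, of every tested gene of the 8 lists, with 1 open point per gene, filled points for called genes and a line at the median of each list. The 3 called genes were *PFKFB4*, *SLC2A3* and *DDIT4*, and the list medians lay between −0.11 and 0.38.

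The thioredoxin system, whose central protein TXNIP binds, held no called gene. Of 21 genes, 20 were tested and 0 were called by limma, with 0 higher and 5 lower at an unadjusted p under 0.05 (7.06% and 9.7% of all genes) and a median log2 fold change of −0.11. *TXN*, the thioredoxin gene itself and named for this reason after its value was seen, had means of 938 ± 186 and 900 ± 76.6 TPM (SD, n = 3 each) and a log2 fold change of −0.04 (SE 0.16). *TXNRD1*, the reductase that recycles cytosolic thioredoxin, had 1063.7, 877.3 and 688.92 TPM in control and 465.12, 463.45 and 485.22 TPM in knockdown libraries. Each knockdown library was below each control library, and the log2 fold change was −0.87 (SE 0.17, limma, Benjamini–Hochberg adjusted p = 0.0588). *TXNRD1* was called by limma without control replicate 1 (adjusted p = 0.0391) or control replicate 3 (0.0263). It was also called with a mean of at least 5 TPM (0.0489), the GC trend removed (0.0159), the replicate block (0.033) and both (0.0363). Over all alternatives its adjusted p ran from 0.0159 to 0.257. *NXN*, nucleoredoxin, had 35.76, 49.41 and 38.11 TPM against 22.67, 29.38 and 26.27 TPM. The groups did not overlap, and the log2 fold change was −0.63 (SE 0.19, limma, adjusted p = 0.165). *NXN* was called with the GC trend removed (adjusted p = 0.0412), with the replicate block (0.0434) and with both (0.0463), out of a range of 0.0412 to 0.434. Over all genes tested, these settings called 8.5%, 861 of 14020 and 7.33%, in that order.

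The machinery through which alpha-arrestins act was not called in any member. All 18 genes of NEDD4-family ligases and ESCRT partners were tested and 0 were called by limma. At an unadjusted p under 0.05 there were 0, against 16.8% of all genes, and the median log2 fold change was 0.05. The largest differences were those of the ligase *HECW1*, with a log2 fold change of −0.56 (SE 0.47, limma, Benjamini–Hochberg adjusted p = 0.580), and of *VPS4A*, the ATPase that takes ESCRT filaments apart, with −0.46 (SE 0.24, adjusted p = 0.369).

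Of 9 other genes with an arrestin fold, 6 were tested and 0 were called by limma. At an unadjusted p under 0.05, 0 were higher and 2 were lower, against 7.06% and 9.7% of all genes. *ARRDC5*, *SAG* and *ARR3* were not tested. *ARRB2*, a beta-arrestin of G protein-coupled receptors, had 35.34, 59.78 and 61.56 TPM in control and 26.82, 32.3 and 40.87 TPM in knockdown libraries. Knockdown replicate 3 lay above control replicate 1, and the log2 fold change was −0.61 (SE 0.26, limma, Benjamini–Hochberg adjusted p = 0.290). *VPS26B*, a retromer subunit, had 35.6, 42.97 and 39.9 TPM against 23.67, 30.18 and 26.42 TPM. Its groups did not overlap, with a log2 fold change of −0.55 (SE 0.18, limma, adjusted p = 0.175). *VPS26B* was called by limma with the GC trend removed (adjusted p = 0.038) and with the block and the GC correction, out of a range of 0.038 to 0.460. Over all genes tested, these settings called 8.5% and 7.33%.

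Among membrane proteins ascribed to alpha-arrestins as cargo, 1 rose. Of 10 listed, 9 were tested, 1 was called higher and 0 lower, against 0.371% and 0.67% of all genes, with 1 higher and 1 lower at an unadjusted p under 0.05 (7.06% and 9.7% of all genes) and a median log2 fold change of −0.03. *SLC2A3*, the glucose transporter GLUT3, had 11.83, 10.49 and 7.26 TPM in control and 30.3, 29.18 and 25.72 TPM in knockdown libraries. The groups were well apart, with a log2 fold change of 1.46 (SE 0.22, limma, Benjamini–Hochberg adjusted p = 0.0285). *SLC2A3* lost its call without control replicate 2 (adjusted p = 0.140), knockdown replicate 1 (0.129), knockdown replicate 2 (0.157) or knockdown replicate 3 (0.133), with log2 fold changes from 1.27 to 1.59 over the libraries left out. *SLC2A1*, the transporter GLUT1 that TXNIP is best known to remove, is named after its value was seen. It had means of 186 ± 64.9 and 212 ± 45.2 TPM (SD, n = 3 each) and a log2 fold change of 0.23 (SE 0.29, limma, adjusted p = 0.729).

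Of 15 other regulators and partners of *TXNIP*, 15 were tested, 1 was called higher and 0 lower, against 0.371% and 0.67% of all genes. At an unadjusted p under 0.05, 2 were higher and 1 was lower, against 7.06% and 9.7% of all genes, with a median log2 fold change of −0.04. *DDIT4*, also known as REDD1, an inhibitor of mTORC1 that forms a complex with TXNIP, had 76.22, 110.86 and 55.94 TPM in control and 189.12, 250.27 and 209.23 TPM in knockdown libraries. The groups did not overlap, and the log2 fold change was 1.45 (SE 0.25, limma, Benjamini–Hochberg adjusted p = 0.0433). The call of *DDIT4* was lost without control replicate 2 (adjusted p = 0.0669), control replicate 3 (0.0541), knockdown replicate 1 (0.124), knockdown replicate 2 (0.204) or knockdown replicate 3 (0.18), with log2 fold changes from 1.22 to 1.70 over the libraries left out.

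The genes whose pattern was nearest to that of *TXNIP* were ranked by the root mean square difference of the 6 values, each as log2(TPM + 1) minus the mean of the control libraries. Because the pattern was chosen for its change, the likeness is a description of the same comparison, and the median difference over the other 14019 genes was 1.88. *PFKFB4* was nearest, with 0.257. It was followed by *ZNF114*, a zinc-finger gene, with 0.383, *BNIP3*, a mitophagy receptor, with 0.403, *ACTA2*, smooth muscle actin, with 0.472, and *TM4SF19* with 0.476. *PSG5*, a pregnancy-specific glycoprotein, had 0.480, *SPAG4*, a nuclear envelope protein, 0.505, and *PPP1R3C*, a glycogen-targeting subunit like *PPP1R3B*, 0.508. None of the other members was among these genes. *ARRDC2* came 1436th (1.5), *ARRDC4* 1552nd (1.52), *ARRDC1* 3763rd (1.70), *MLXIP* 7803rd (1.92) and *ARRDC3* 13476th (2.47).

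Among the nearest genes, the order of the libraries within a group differed. *BNIP3* had 108.33, 97.93 and 100.68 TPM in control and 493.87, 439.25 and 348.7 TPM in knockdown libraries, where replicate 3 was the lowest knockdown library as in *TXNIP*. *ACTA2* had 9.18, 10.05 and 8.07 TPM against 39.19, 39.21 and 43.14 TPM, with replicate 3 the highest. *ZNF114* had 21.07, 19.21 and 7.49 TPM against 89.24, 78.02 and 69.85 TPM, and was, like *PSG5* with 7.48, 5.28 and 1.36 TPM in control libraries, low in control replicate 3.

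**Figure D5:**
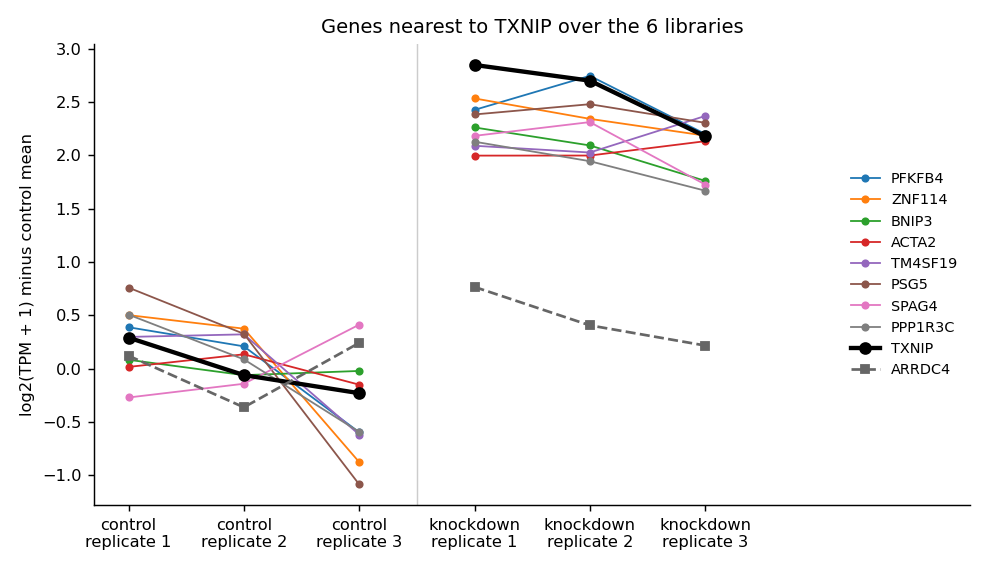
Log2(TPM + 1) minus the mean of the control libraries, in each of the 6 libraries, for *TXNIP* (black), the 8 genes nearest to it and *ARRDC4* (dashed), with lines that join the values of 1 gene within a group and mark no order. *ARRDC4* stayed below *TXNIP* and all 8 genes in the knockdown libraries.

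The pair of boxes printed in capitals for *TXNIP* was found before 16 genes, of which 13 were tested and 3 were called, against 1.04% of all genes. With *TXNIP*, which the choice of members fixes, left out, 2 were called, in opposite directions, and both are named after their values were seen. *P4HA1*, a collagen prolyl hydroxylase, had 18.88, 12.12 and 7.86 TPM in control and 58.69, 44.37 and 34.26 TPM in knockdown libraries. Its groups did not overlap, with a log2 fold change of 1.79 (SE 0.32, limma, Benjamini–Hochberg adjusted p = 0.0494). *RAN*, the GTPase of nuclear transport, had 1533.2, 1119.3 and 1391.9 TPM against 717.84, 681.16 and 663.88 TPM, with a log2 fold change of −0.96 (SE 0.14, adjusted p = 0.0285 by limma). *P4HA1* lost its call without control replicate 2, control replicate 3 or any of the knockdown replicates, and *RAN* without control replicate 2 or any of the knockdown replicates, with adjusted p of up to 0.194 and 0.153. Without a filter both lost their call (limma, adjusted p = 0.144 for *P4HA1* and 0.111 for *RAN*), and *RAN* also with quantile normalization (0.051).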

How the data were processed

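RNA-Seq was performed on 3 control and 3 *RAB30-DT* knockdown libraries of SK-Hep1 cells, from poly-A RNA. The authors deposited 1 table per library, with a TPM for each gene given to 2 decimals. The methods describe trimming with fastp, alignment with STAR and estimation with RSEM, whereas the submitters' processing notes name fastp and HISAT2 (2.0.5) with build hg38, so the aligner is not settled. Every versioned identifier matched GENCODE Release 44, which gave names, positions and exon GC content. Depth is unknown from TPM, and precision rests on the 3 libraries of each group.

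Values were analysed as log2(TPM + 1), a scale that understates the change of low genes, for 14020 genes that averaged 1 TPM or more, with limma 3.58.1 in R 4.3.3 (lmFit, eBayes with trend, 2-sided, no replicate block). A call required a Benjamini–Hochberg adjusted p under 0.05. The members, the gene lists and the tests were chosen with earlier results of these data known. Genes named were the members, the targeted gene, the called genes of each list (at most 4, or, with none called, the 2 with the largest change) and the 8 genes nearest to *TXNIP*.

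The pseudocount was also set to 0.1 and 5, the filter dropped or raised to 5 TPM, and the values scaled by median of ratios or quantile normalized. Further alternatives were removal of each library's GC trend (loess, span 0.3), a replicate block, the block with the GC correction, and each library left out in turn. On simulated data with 200 changed genes, the fit recovered 78 at a log2 change of 1 (13735 genes) and 197 at a log2 change of 2 (13756 genes). Of the unchanged genes, 13 and 11 were called. The changed genes were drawn from those with a mean log2(TPM + 1) above 2. The simulated noise was independent between libraries and had no GC trend, so the recovery does not carry over to low genes or to such trends.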

Additional observations from a re-analysis of the deposited data

How the results depend on the processing

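The log2 fold changes of the 6 tested members moved by less than the spread between replicates in every alternative run, except that *ARRDC4* had no value with a mean of at least 5 TPM, where it was filtered out. The sign turned for *ARRDC3* without control replicate 3 (0.0089) and for *MLXIP* without control replicate 2 or knockdown replicate 1. The count of called genes, 146, depended on the processing: it was 13 without a filter, 1191 with the GC trend removed, 861 with the replicate block and 1028 with the block and the GC correction, and 12 to 489 with each library left out. With the GC trend removed, 8.5% of all genes tested were called. Among them were 2 of 6 tested members, 2 of 16 carbohydrate response genes and 6 of 15 hexose phosphate enzymes. So were 4 of 20 genes of the thioredoxin system, 1 of 6 other arrestin-fold genes and 2 of 15 regulators of *TXNIP*. The replicate block called 861 of all 14020 genes tested. These held 1 of 9 partners of the Mondo factors, 1 of 16 carbohydrate response genes, 6 of 15 hexose phosphate enzymes and 3 of 20 thioredoxin genes. The block and the GC correction together called 7.33% of all genes, with these same counts (1, 1, 6 and 3), 2 members and 1 other arrestin-fold gene. With a mean of at least 5 TPM, 1 thioredoxin gene was called, and without a filter 0 hexose phosphate enzymes, 0 cargo genes and 0 regulators. With each library left out, the counts ran from 0 to 1 for the partners of the Mondo factors, thioredoxin genes, cargo and regulators and from 0 to 2 for the hexose phosphate enzymes. A tally covered 23 other named genes. It left out those named after their values were seen, except *P4HA1* and *RAN*. Of 344 values under an alternative, 273 kept their side of the threshold, 54 lost and 17 gained a call, and 0 changed direction. The calls gained by *HK1*, *HK2* and *HKDC1*, given above, are not in this tally. The replicate numbers were read as names only, because no pairing is stated. Deviations of libraries with one number correlated across genes with 0.41, 0.0359 and 0.279, all positive. Libraries with different numbers were not compared in this way, so these values do not decide whether the numbers are a pairing. The cause of the differences between settings was not tested. Depth is unknown, and differences in genes near 1 TPM are limited by the rounding and the pseudocount.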
